A study of Mus musculus with 2 samples.

Results

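Head-to-head gene pairs were examined, in which 2 protein-coding genes on opposite strands start 1 to 1000 bp from each other and are transcribed away from a shared stretch of DNA. In the annotation of mouse build NCBIM37, 789 autosomal pairs met this definition, formed by 1562 of 21418 autosomal protein-coding genes. Because 32 of the pairs shared a gene with another pair, the closest pair was taken for each place, which left 773 loci. Neither library was used to choose the pairs. The study sequenced chromatin from Ccnd1-/- 3T3 mouse embryonic fibroblasts that had been transduced with MSCV-FLAG/cyclin D1. Chromatin immunoprecipitation (ChIP) was done with the M2 anti-FLAG antibody in 1 library and with normal mouse IgG in the other. Both libraries carried the deletion and the retroviral transgene, the cells were not treated, and cyclin D1 was seen only as a tagged protein driven by a viral vector. With 1 library per antibody there were no replicates, so each test compares these 2 libraries and each interval covers counting error only.

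Head-to-head promoters are common in mammalian genomes and are enriched for housekeeping genes of DNA repair, the cell cycle, RNA processing and mitochondria. Most are CpG islands without a TATA box, and their shared stretch is typically kept free of nucleosomes. Cyclin D1 drives cells through G1 by activating the kinases CDK4 and CDK6. It has no DNA-binding domain of its own, and where it is found on chromatin it is thought to be brought there by other proteins.

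The stretch between the 2 transcription start sites (TSSs) is shown for 12 of the pairs, read from the NCBIM37 genome on the plus strand. The minus-strand gene starts at the first base and runs to the left, and the plus-strand gene starts at the last base and runs to the right. Capitals mark exact matches on either strand to 11 short motifs, and overlapping matches run together. The motifs are CCGGAAG of ETS factors, GCGCATGCG of NRF1, CCAAT of NF-Y, GGGCGG of Sp/KLF factors, AAGATGGCG of YY1, TTTNNCGC of E2F, TATAAA of the TATA box, TGACGTCA of CREB/ATF, TGANTCA of AP-1, ACTACAA of ZNF143 and the E-box CACGTG. A match is a description of the letters and not a site. The first 4 are the pairs that passed the test with GC correction described further on, at chr1:122017655-122017764 for Dbi-3110009E18Rik, chr15:89186090-89186150 for Lmf2-Ncaph2, chr4:62069676-62069831 for Cdc26-Prpf4 and chr11:69393757-69393861 for Wrap53-Trp53.
Dbi-3110009E18Rik: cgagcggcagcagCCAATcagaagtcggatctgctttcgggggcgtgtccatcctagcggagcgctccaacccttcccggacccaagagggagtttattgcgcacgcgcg
Lmf2-Ncaph2: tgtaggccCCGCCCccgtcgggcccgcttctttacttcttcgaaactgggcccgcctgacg
Cdc26-Prpf4: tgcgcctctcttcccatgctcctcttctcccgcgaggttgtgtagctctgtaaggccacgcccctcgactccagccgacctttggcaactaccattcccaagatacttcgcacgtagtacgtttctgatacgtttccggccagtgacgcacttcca
Wrap53-Trp53: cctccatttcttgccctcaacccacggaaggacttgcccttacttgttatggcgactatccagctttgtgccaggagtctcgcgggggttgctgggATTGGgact

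The next 4 are from pairs well known as head-to-head promoters, with anti-FLAG excess in some and few tags in others, at chr11:101413269-101413463 for Brca1-Nbr1, chr1:82583424-82583496 for Col4a4-Col4a3, chr5:111268796-111269036 for Hscb-Chek2 and chr7:29526839-29527010 for Mrps12-Sars2.
Brca1-Nbr1: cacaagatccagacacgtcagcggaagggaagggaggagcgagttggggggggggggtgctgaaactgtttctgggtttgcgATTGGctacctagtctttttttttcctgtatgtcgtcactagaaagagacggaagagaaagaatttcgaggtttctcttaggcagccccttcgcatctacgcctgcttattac
Col4a4-Col4a3: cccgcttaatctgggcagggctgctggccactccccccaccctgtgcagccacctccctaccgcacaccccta
Hscb-Chek2: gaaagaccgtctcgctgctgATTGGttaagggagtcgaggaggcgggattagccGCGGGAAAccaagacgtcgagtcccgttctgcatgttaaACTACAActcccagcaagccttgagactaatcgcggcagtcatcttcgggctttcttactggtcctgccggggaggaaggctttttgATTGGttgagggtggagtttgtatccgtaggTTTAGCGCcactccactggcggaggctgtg
Mrps12-Sars2: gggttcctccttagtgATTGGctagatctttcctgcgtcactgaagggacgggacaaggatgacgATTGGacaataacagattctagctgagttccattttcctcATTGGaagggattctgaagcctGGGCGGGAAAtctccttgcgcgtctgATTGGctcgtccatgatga

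The last 4 are 2 pairs of large and 2 of low anti-FLAG to IgG ratio, at chr12:106923451-106923562 for Atg2b-4933433P14Rik, chr7:96552732-96552876 for Tmem135-Fzd4, chr9:44575928-44575991 for Arcn1-Ift46 and chr14:75530690-75530908 for Lrrc63-Lcp1.
Atg2b-4933433P14Rik: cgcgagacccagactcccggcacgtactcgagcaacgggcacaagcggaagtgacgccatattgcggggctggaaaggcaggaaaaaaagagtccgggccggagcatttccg
Tmem135-Fzd4: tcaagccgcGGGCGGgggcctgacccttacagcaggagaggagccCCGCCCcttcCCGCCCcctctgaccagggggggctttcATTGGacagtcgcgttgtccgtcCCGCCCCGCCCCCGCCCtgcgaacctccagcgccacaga
Arcn1-Ift46: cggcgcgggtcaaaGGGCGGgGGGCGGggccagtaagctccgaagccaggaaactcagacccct
Lrrc63-Lcp1: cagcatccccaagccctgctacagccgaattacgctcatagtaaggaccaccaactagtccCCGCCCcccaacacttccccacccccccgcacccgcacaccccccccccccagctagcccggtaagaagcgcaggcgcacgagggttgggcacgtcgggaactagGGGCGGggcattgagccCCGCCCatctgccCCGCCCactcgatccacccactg

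The shared stretches differed widely in make-up within this small set. That of Tmem135-Fzd4 held 6 GGGCGG matches and 1 CCAAT match in 145 bp, that of Mrps12-Sars2 held 4 CCAAT matches in 172 bp, and those of Cdc26-Prpf4, Atg2b-4933433P14Rik and Col4a4-Col4a3 held none of the 11 motifs. Over all 789 pairs the TSSs lay 1 to 987 bp apart with a median of 141 bp (quartiles 73 and 271), and 622 pairs, 78.8%, lay within 300 bp.

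Both libraries were of nearly equal depth, with 9259840 tags for anti-FLAG and 9312346 for IgG, of which 8920625 and 8924859 lay on the autosomes, a mean of 3.73 tags per kb in each. ChIP tags do not measure expression, so the fibroblast label could not be checked against cell type markers. At Ccnd1 (chr7:152115836-152125774, 5 exons), the targeted gene, introns 1 to 3 held 2 anti-FLAG and 2 IgG tags in 4955 bp, 0.404 per kb in each. Its exons, which the transgene may also carry, held 11.5 anti-FLAG and 3.48 IgG tags per kb. Windows over 10 kb from every TSS gave 0.956 anti-FLAG tags per scaled IgG tag at 40 to 42% GC, 1.34 at 50 to 52% and 2.19 at 60 to 62%. That dependence touches the comparisons that follow, because the pairs were GC-rich.

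More tags were counted with anti-FLAG than with IgG at most head-to-head pairs, as at most single promoters. In windows of 1 kb on either side of the midpoint between the TSSs, anti-FLAG counts at the pairs ran between 0 and 79 tags with a median of 22, and IgG counts between 0 and 50 tags with a median of 10. Single promoters, 15296 genes whose TSS lay over 5 kb from any other, held medians of 10 anti-FLAG and 7 IgG tags in windows of the same size. Anti-FLAG tags outnumbered IgG tags at 723 of the 773 loci, IgG tags were more numerous at 31, and the counts were equal at 19. That is 93.5% of pair loci with more anti-FLAG tags, against 66.8% of single promoters and 70.3% of all promoter windows, tested or not. Among windows with enough tags to be tested, a log2 ratio above 0 was found at 96.8% of pairs, 89.2% of single promoters and 90.6% of all windows. The median log2 ratio, with 1 tag added to each count, was 1.09 over the 773 pair loci and 0.49 over the 15296 single promoters.

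A window was tested where the libraries summed to 20 or more tags, with a 2-sided exact conditional binomial test, with Benjamini-Hochberg adjustment over all 10092 promoter windows tested. Of the pair loci, 661 (85.5%) reached that minimum, against 6770 single promoters (44.3%). A window low in IgG reached it only through its anti-FLAG tags, so counts among tested windows describe these windows and not every pair. Of the 661 tested pair loci, 281 (42.5%) were higher in anti-FLAG at an adjusted p under 0.05 and 0 were lower. The same call was made at 26.2% of tested single promoters and at 29.2% of all promoter windows tested. At least 2-fold more anti-FLAG than scaled IgG tags were counted at 409 tested pair loci (61.9%), compared with 44.3% of tested single promoters and 47.4% of all windows. The median log2 ratio of tested windows was 1.11 at pairs (quartiles 0.70 and 1.47), 0.81 at single promoters (0.36 and 1.29) and 0.87 over all windows. A further annotated TSS lay within 2 kb at 49 pair loci, and without them 266 of 619 tested loci (43.0%) were higher.

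Correction for GC removed nearly all of these calls at single loci. The pair windows had a median GC content of 62.4% in the central 500 bp and single promoters 56.0%. Over the whole 2-kb windows that were corrected, the medians were 54.55% and 50.35%. The median ratio expected from GC in these windows was 1.57 at pairs and 1.30 at single promoters. When the expected ratio was taken from distant windows of the same GC, 4 tested pair loci (0.605%) were higher, against 0.96% of single promoters and 1.03% of all windows. The share at pairs was thus not above that background. At an unadjusted p under 0.05, 116 tested pair loci (17.5%) were higher with the correction, against 11.5% of single promoters and 13% of all windows. Without it, 395 (59.8%) were, against 38.9% of single promoters and 42.3% of all windows. The median GC-corrected log2 ratio was 0.53 at tested pairs, 0.33 at tested single promoters and 0.36 over all windows tested. Over pairs that were not tested as well it was 0.48, against 0.10 for single promoters. At a median of 22 and 10 tags a window, differences at 1 locus were resolved only where they were large.

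**Figure D1:**
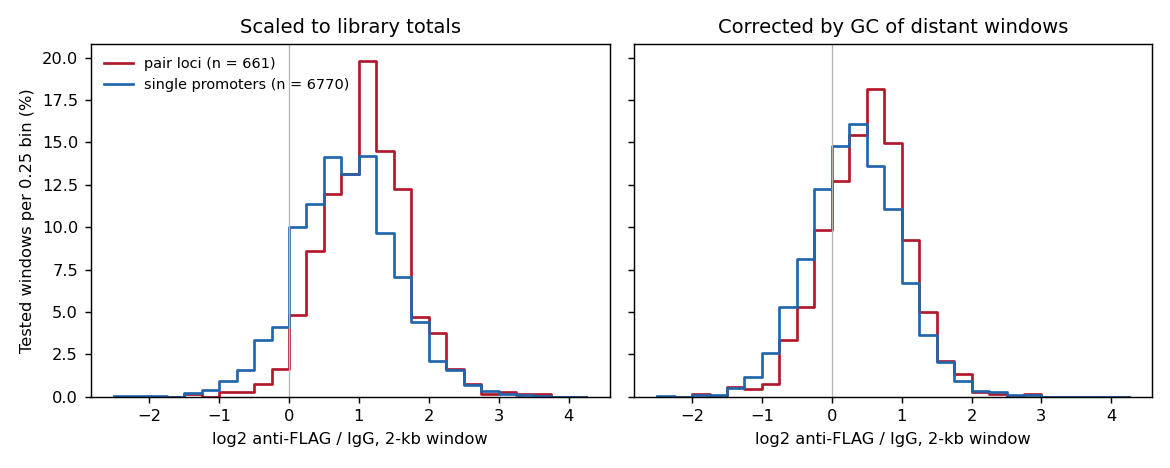
Distribution of the log2 ratio of anti-FLAG to IgG tags (1 tag added to each) in tested 2-kb windows, in percent of windows per 0.25 bin, for 661 pair loci (red) and 6770 single promoters (blue), scaled to library totals (left) and after GC correction (right). The medians are 1.11 and 0.81 on the left, and 0.53 and 0.33 on the right.

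The anti-FLAG to IgG ratio of the pairs was highest around their TSSs and the stretch between them. Anti-FLAG tags stayed above their mean further out as well. Within 250 bp of the midpoint, the 773 pair loci held 5669 anti-FLAG and 1075 IgG tags, or 14.7 and 2.78 tags per kb. The scaled ratio was 5.30 (95% exact binomial interval 4.97 to 5.67), and 2.11 was expected from GC. Around single TSSs the densities were 7.17 anti-FLAG and 2.67 IgG tags per kb, with a ratio of 2.70 (2.65 to 2.74) and 1.71 expected from GC. Observed over expected was 2.52 at pairs and 1.57 at single promoters. The ratio of the pairs fell with the width counted, to 3.43 within 500 bp and 2.17 within 1 kb, against 2.03 and 1.60 at single promoters. In bins of 50 bp, anti-FLAG tags at pairs reached 3.70 times their mean at 4 to 5 kb, in the bin just left of the midpoint. IgG tags there were below their mean, with a lowest value of 0.50. At single promoters the anti-FLAG profile reached 2.10 at 125 bp upstream of the TSS and the IgG profile had a lowest value of 0.54. Both the anti-FLAG peak and the IgG dip therefore entered the ratio. The pooled IgG densities within 250 bp were 2.78 tags per kb at pairs (exact Poisson interval 2.62 to 2.95) and 2.67 at single promoters (2.64 to 2.71). These intervals overlapped, so the pooled ratios differed mainly through anti-FLAG tags. At like GC the IgG densities differed. They were 5.12 at pairs and 3.06 at single promoters of 50 to 55% GC, and 1.26 and 1.64 at 65 to 70%.

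**Figure D2:**
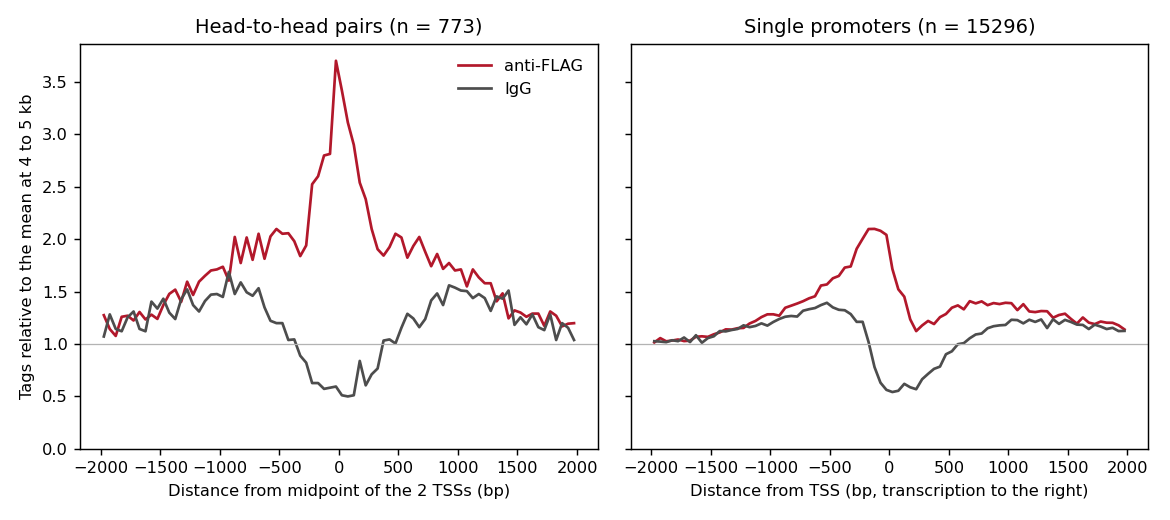
Tags per 50-bp bin relative to the mean at 4 to 5 kb, against distance from the midpoint of 773 pairs (left, minus-strand gene on the left) and from 15296 single TSSs (right, transcription to the right), anti-FLAG in red and IgG in grey. Anti-FLAG reaches 3.70 at pairs and 2.10 at single promoters, while IgG dips to 0.50 and 0.54.

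The difference from single promoters was smaller among loci of like CpG content. Observed over expected CpG, a measure of CpG islands, had a median of 0.83 at pairs and 0.49 at single promoters. A value of at least 0.6, a limit added after the data were seen, was reached by 672 pair loci (86.9%) and 6660 single promoters (43.5%). Among these CpG-rich loci the ratio within 250 bp was 6.02 (5.60 to 6.48) at pairs and 4.93 (4.81 to 5.06) at single promoters. The interval was 2.14 to 2.94 at the CpG-poor pairs and 1.48 to 1.54 at CpG-poor single promoters. Of tested CpG-rich windows, 43.2% were higher at pairs and 32.0% at single promoters.

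The order of CpG-rich pairs and CpG-rich single promoters depended on where tags were counted. Within 100 bp of the midpoint the ratio was 7.81 (6.93 to 8.84) at CpG-rich pairs, below the 9.26 (8.80 to 9.76) within 100 bp of CpG-rich single TSSs. With the GC of these 200 bp, the expected ratio was 2.03 at these pairs and 2.79 at these single promoters. Observed over expected was then 3.85 at pairs and 3.32 at single promoters. That expectation set the GC of 200 bp against distant windows of 500 bp, unlike the other expectations given here. Over all pairs it was 1.89 with the GC of 200 bp and 1.97 with that of 500 bp. The order after GC correction within 100 bp was therefore not settled. Within 250 bp observed over expected was 2.66 at CpG-rich pairs and 1.90 at CpG-rich single promoters. In the 100 bp around each TSS, with tags in overlapping windows of a pair counted once, the ratio was 10.3 (8.93 to 11.9) at CpG-rich pairs and 10.6 (9.80 to 11.4) at CpG-rich single promoters, with overlapping intervals, and observed over expected was 4.74 and 4.42. The densities there were 17.2 anti-FLAG and 1.68 IgG tags per kb at pairs, against 11.4 anti-FLAG and 1.08 IgG tags per kb at single promoters. At the TSS itself, CpG-rich pairs thus had more tags of both libraries and a ratio that could not be told from that of CpG-rich single promoters at this depth. Over all promoters, whatever their CpG content, the ratio in the 100 bp around each TSS was 8.86 (7.80 to 10.1) at pairs and 3.73 (3.59 to 3.88) at single promoters, and observed over expected from GC was 4.37 and 2.54. At the pairs this ratio was above the 6.56 (5.90 to 7.31) within 100 bp of the midpoint.

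Loci of like GC content were then set side by side. At 50 to 55% GC the ratio within 250 bp was 3.89 (3.36 to 4.51) at pairs and 2.33 (2.23 to 2.42) at single promoters. At 60 to 65% it was 7.13 (6.21 to 8.20) at pairs and 4.76 (4.56 to 4.97) at single promoters, and at 65 to 70% it was 8.60 (7.01 to 10.7) at pairs and 5.59 (5.29 to 5.91) at single promoters. The intervals overlapped at 70 to 75%, with 8.36 (6.04 to 11.9) at pairs and 7.23 (6.61 to 7.92) at single promoters, and again at 75 to 80%. With CpG-rich loci alone, the intervals of pairs and single promoters also overlapped at 50 to 55%, where the ratios were 4.51 (3.80 to 5.38) and 3.80 (3.51 to 4.12), and at 55 to 60%, where they were 5.01 (4.40 to 5.72) and 4.25 (4.03 to 4.48). They stayed apart at 60 to 65% and at 65 to 70%, where the ratio of CpG-rich pairs was 7.37 and 8.75, against 5.14 and 5.74 at CpG-rich single promoters.

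**Figure D3:**
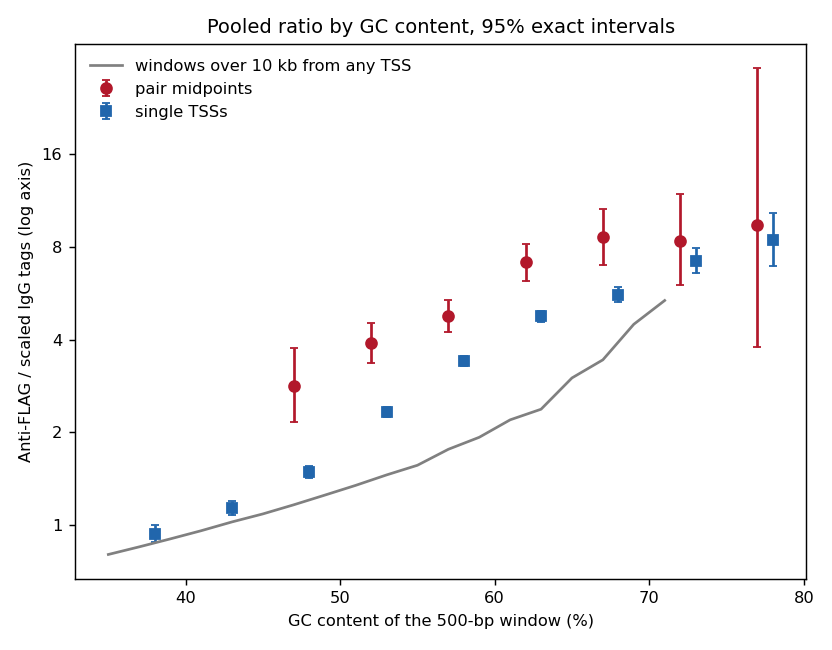
Ratio of anti-FLAG to scaled IgG tags within 250 bp of pair midpoints (red circles) and single TSSs (blue squares), by GC content of the 500-bp window, on a log axis with 95% exact binomial intervals, and the same ratio in windows over 10 kb from any TSS (grey line). Pairs lie above single promoters from 45 to 70% GC, for example 7.13 and 4.76 at 60 to 65%, and their intervals overlap above 70%.

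Between the TSSs, anti-FLAG tags were densest and IgG tags least dense where the 2 genes started closest together. Over all distances the stretch held 2475 anti-FLAG and 495 IgG tags, or 15.2 and 3.04 per kb, with a ratio of 5.03 (4.56 to 5.55). Anti-FLAG tags were the more numerous in the stretch of 536 loci and IgG tags in that of 31, while 22 stretches had equal counts and 184 held no tag. For TSSs 1 to 100 bp apart the stretch held 20.6 anti-FLAG and 1.31 IgG tags per kb, from 347 and 22 tags, a ratio of 15.9 (10.3 to 25.6). For TSSs over 500 bp apart it held 11.8 anti-FLAG and 4.46 IgG tags per kb. The ratio was 10.6 (8.02 to 14.4) where they lay up to 200 bp apart, 6.49 (5.08 to 8.39) up to 300 bp, 4.49 (3.58 to 5.68) up to 500 bp and 2.67 (2.30 to 3.09) up to 1000 bp, each class starting where the one before it ended. GC moved with distance, from a median of 64.4% in the central 500 bp of the closest pairs to 54.8% of the most distant. The ratio expected from GC was 2.45 for the closest class and 1.47 for the most distant. Within the first 500 bp of both gene bodies the ratio was 2.81 (2.69 to 2.92) over all pairs and lay between 2.37 and 2.91 in the 5 classes.

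In the pairs with TSSs over 500 bp apart, IgG tags were depleted at both TSSs and not between them. The 100 bp around each TSS held 11.4 anti-FLAG and 2.16 IgG tags per kb there, a ratio of 5.29 (3.67 to 7.82). The 200 bp around the midpoint held 12.04 anti-FLAG and 5.99 IgG tags per kb, a ratio of 2.02 (1.58 to 2.61). Anti-FLAG density was thus alike at the 2 places while IgG density differed. In the closest pairs the 2 places largely coincide, and 18.8 anti-FLAG and 1.39 IgG tags per kb lay around the TSSs. The call in 2-kb windows went the other way with distance. Of tested loci, 35.9% were higher in the closest class, 40.7% in the second, 53.1% in the third, and 33 of 66 in each of the wider classes, with median log2 ratios of 0.92, 1.09, 1.19, 1.20 and 1.28. After GC correction these medians were 0.44, 0.53, 0.66, 0.55 and 0.55.

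**Figure D4:**
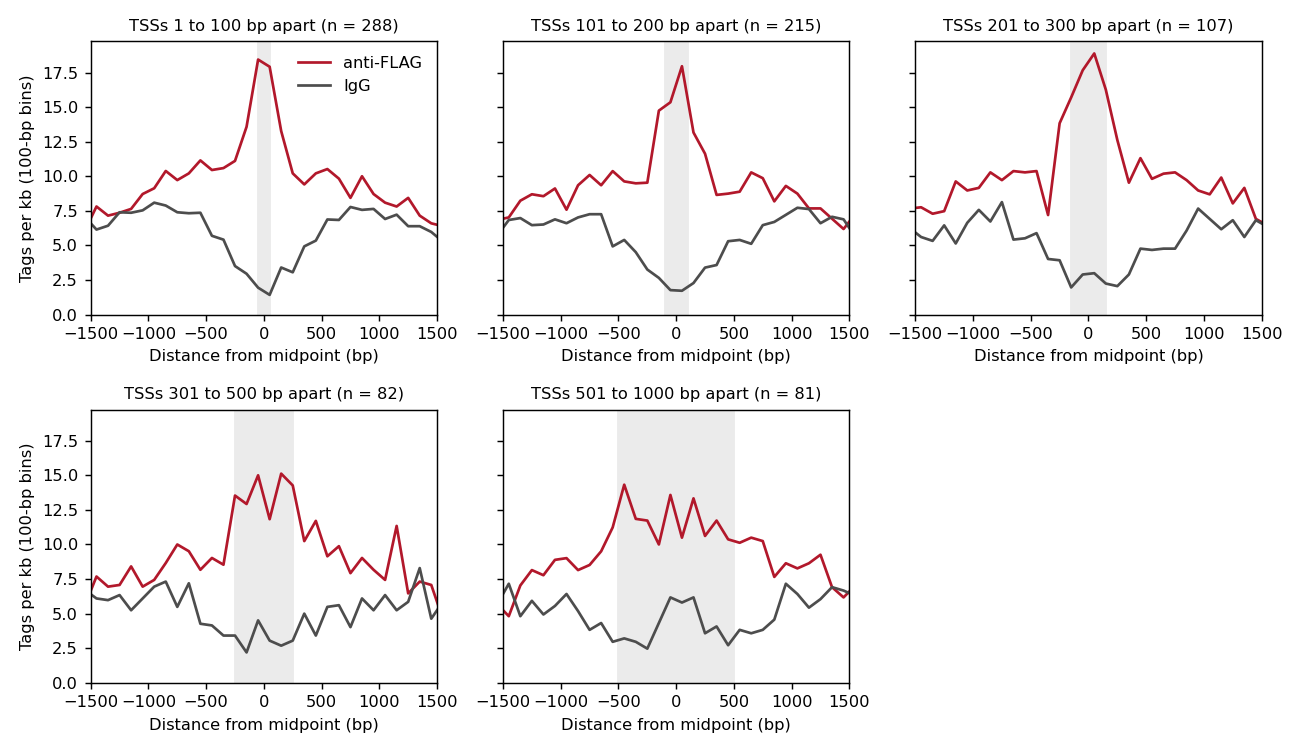
Tags per kb in 100-bp bins against distance from the midpoint, for pairs by distance between the TSSs, anti-FLAG in red and IgG in grey; the grey band spans the widest stretch between TSSs of the class. IgG is lowest at the midpoint of close pairs, and in pairs over 500 bp apart it rises to 5.99 tags per kb around the midpoint and is lower on either side.

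At the limit of the definition, Btf3l4-Txndc12 (987 bp apart) held 26 anti-FLAG and 4 IgG tags, and Pdzd7-Sfxn3 (987 bp) held 24 and 11. Just outside it, Nacc1-Trmt1 (1004 bp) held 25 anti-FLAG and 23 IgG tags, Atg14-Gm6616 (1008 bp) held 15 and 12, and Sgsm2-Tsr1 (1011 bp) held 14 and 6.

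The pairs that passed the test with GC correction numbered 4. Lmf2-Ncaph2 joins a lipase maturation factor to a subunit of condensin II, with TSSs 60 bp apart. It held 39 anti-FLAG and 4 IgG tags, a log2 ratio of 3.01 with an adjusted p of 1.05e-05 in the exact test, and 2.40 with 0.0149 after GC correction. Of its anti-FLAG tags, 14 lay 750 to 1000 bp from the midpoint on the Ncaph2 side and 7 within 250 bp of it. The excess was thus not centred on the stretch shown above. Dbi-3110009E18Rik, with the gene of the acyl-CoA-binding protein, held 47 anti-FLAG and 8 IgG tags (GC-corrected log2 ratio 1.99, exact test, adjusted p = 0.0115). Within 500 bp of the midpoint it had 19 anti-FLAG tags and no IgG tag, and 8 anti-FLAG tags lay within 250 bp. Its highest 250-bp bin, with 12 anti-FLAG tags, lay 500 to 750 bp from the midpoint on the 3110009E18Rik side. Cdc26-Prpf4, which pairs a subunit of the anaphase-promoting complex with a protein of the U4/U6 spliceosomal particle, held 45 anti-FLAG and 10 IgG tags (GC-corrected log2 ratio 1.77, exact test, adjusted p = 0.0157), with 17 anti-FLAG and 0 IgG tags within 250 bp of the midpoint. Wrap53-Trp53, the genes of a telomerase and Cajal body protein and of the tumour suppressor p53, held 55 anti-FLAG and 16 IgG tags (GC-corrected log2 ratio 1.36, exact test, adjusted p = 0.0376). Its anti-FLAG tags were spread over the whole window, with 14 at the far end of the Wrap53 side and 12 within 250 bp of the midpoint.

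The 12 loci of largest log2 ratio among those that passed the uncorrected test, with at least 25% of anti-FLAG tags on each strand, had anti-FLAG counts between 21 and 39 and IgG counts between 1 and 4. Atg2b-4933433P14Rik came first, with 22 anti-FLAG tags and 1 IgG tag, a ratio of 22.1 (3.58 to 913); Atg2b encodes a lipid-transfer protein of autophagy. 5031425E22Rik-Mll5, whose Mll5 encodes a SET-domain chromatin protein, held 29 anti-FLAG and 2 IgG tags. S100pbp-Yars, with the gene of tyrosyl-tRNA synthetase, held 23 and 2. The next were Tmem135-Fzd4 with 27 and 3 tags, where Fzd4 encodes a receptor for Wnt proteins and norrin, and Atp6v1a-Naa50 with 32 and 4, where the genes encode the catalytic subunit of the vacuolar proton pump and an N-terminal acetyltransferase. Cryzl1-Itsn1, with the gene of the endocytic scaffold intersectin, and 2810055F11Rik-Jkamp each held 24 anti-FLAG and 3 IgG tags. H2-Ke2-Wdr46 held 23 and 3, Zswim7-Ttc19 held 22 and 3, and 2810408A11Rik-Neurl4 and Basp1-Gm5468 each held 21 and 3. With so few IgG tags the intervals were wide, and apart from Lmf2-Ncaph2 none of these 12 passed after GC correction (adjusted p 0.126 to 0.489).

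At the other end, 21 of the 661 tested pairs had a log2 ratio of 0 or less. Arcn1-Ift46, the genes of a coatomer subunit and of an intraflagellar transport protein, was the lowest with 6 anti-FLAG and 17 IgG tags (log2 ratio -1.35, exact test, adjusted p = 0.0892). Of its IgG tags, 9 lay in the last 250 bp of the Ift46 side. Lrrc63-Lcp1, where Lcp1 encodes the actin-bundling protein L-plastin of blood cells, held 8 and 17 tags, and Stap2-Mpnd held 9 and 19. Sdccag3-Pmpca, with a mitochondrial processing peptidase subunit, held 8 and 13, and Klhdc3-Mea1 held 8 and 12. None of these 5 passed the test.

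Pairs long known as bidirectional promoters were split. Over all tested pair loci 42.5% were higher and 61.9% past 2-fold, and over all promoter windows tested 29.2% and 47.4%. Of 18 well-known pairs listed, 8 met the definition and 6 reached the tag minimum, 4 of which were higher and all 6 past 2-fold. Besides Wrap53-Trp53, these were Hscb-Chek2 with 35 anti-FLAG and 10 IgG tags, Mcm4-Prkdc with 28 and 9, and Brca1-Nbr1 with 24 and 7 (exact test, adjusted p = 0.00285, 0.0116 and 0.0138). They hold the genes of the checkpoint kinase CHK2, of a subunit of the replicative helicase and the DNA-dependent protein kinase, and of the repair protein BRCA1 and an autophagy receptor. At Brca1-Nbr1, 16 of the 24 anti-FLAG tags lay within 250 bp of the midpoint. Gart-Son, which joins a purine synthesis enzyme to a splicing protein, held 23 and 11 tags, and Mrps12-Sars2, a pair of mitochondrial translation genes, held 24 and 11 (adjusted p = 0.1 and 0.078 in the exact test). Neither passed. Atm-Npat, the genes of the DNA damage kinase ATM and of a coactivator of histone genes, held 10 anti-FLAG and 9 IgG tags, of which 8 and 1 lay within 250 bp of the midpoint. Col4a4-Col4a3, basement membrane collagens, held 2 and 2. In the other 10 the annotated gene ends overlapped or lay too far apart, for example by 21 bp of overlap at Col4a1-Col4a2 and 111 bp at Hspd1-Hspe1.

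**Figure D5:**
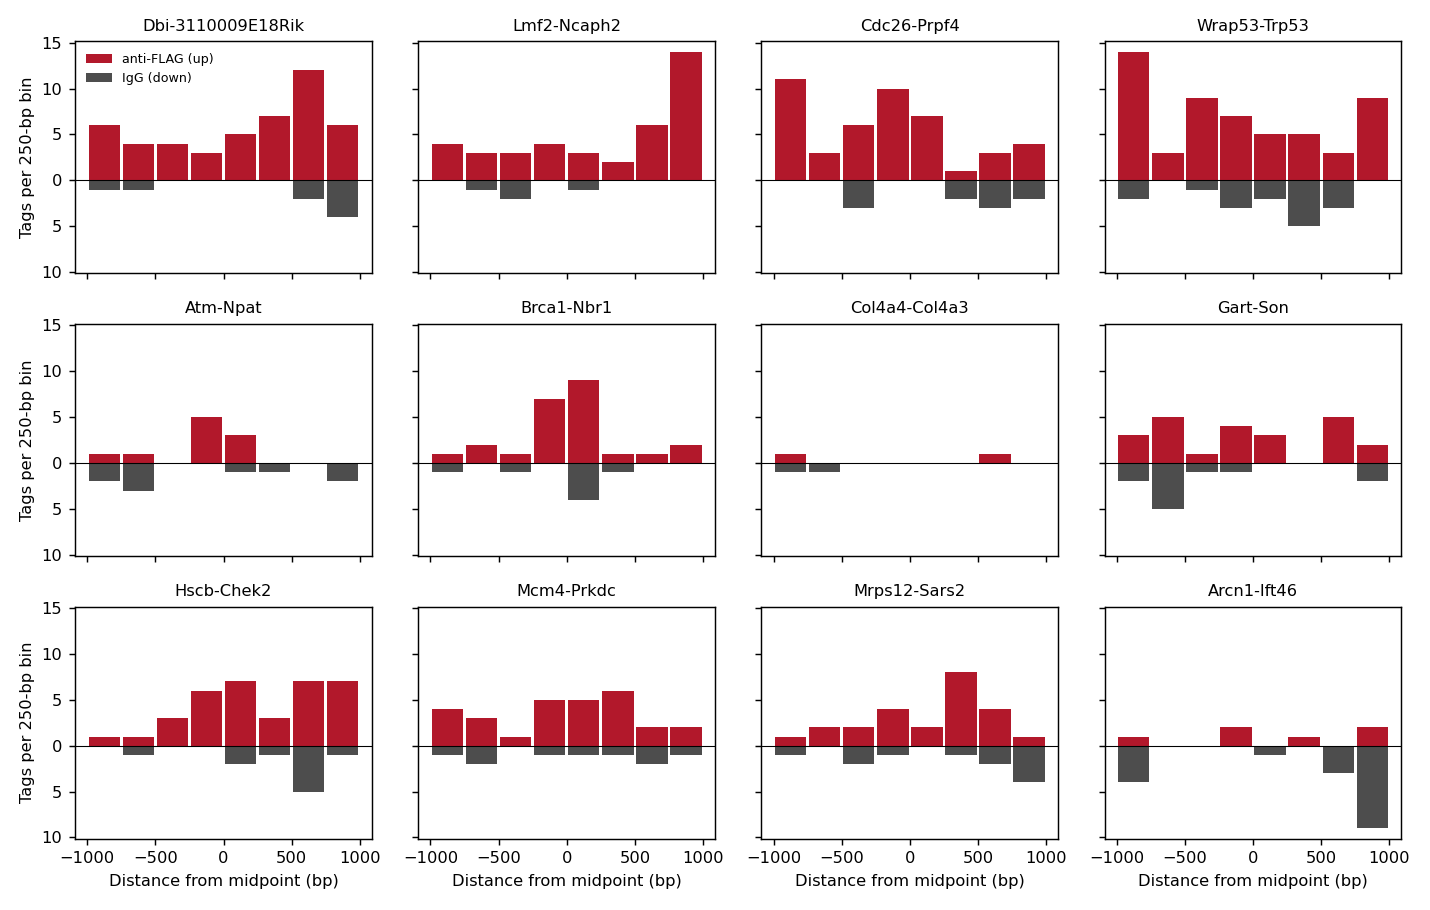
Tags per 250-bp bin against distance from the midpoint (minus-strand gene on the left) at 12 pairs, anti-FLAG upwards in red and IgG downwards in grey: the 4 past the test with GC correction, 7 other well-known pairs and Arcn1-Ift46. Brca1-Nbr1 has 16 of its 24 anti-FLAG tags next to the midpoint, Lmf2-Ncaph2 has 14 of 39 at the far right, and Col4a4-Col4a3 has 2 tags of each library.

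The genes of the pairs were grouped by known role to see whether any group stood away from the rest. For comparison, 42.5% of all tested pair loci were higher, 26.2% of tested single promoters and 29.2% of all promoter windows tested. No list had a locus that was lower. Among genes that copy and divide the genome, mitosis and kinetochore loci were higher at 17 of 30 tested (median log2 ratio 1.17) and replication and nucleotide synthesis at 8 of 19 (1.23). Examples were Rpa3-Gm16039, with a subunit of the single-strand binding protein RPA, at 34 anti-FLAG and 7 IgG tags, and Prpf38a-Orc1, with the large subunit of the origin recognition complex, at 29 and 6. DNA repair loci were higher at 21 of 53 (1.09), among them Xrcc3-Zfyve21, with a gene of homologous recombination, at 27 and 5. Replication-dependent histone loci were higher at 6 of 11 (1.23). Hist1h2an-Hist1h2bp held 31 and 7 tags and Hist1h2ac-Hist1h2bc held 37 and 12, whereas Hist1h2bq-Hist1h2ao and Hist1h2ap-Hist1h2br held 0 in both libraries. These histone genes are near-identical copies, and how the authors placed tags that match several copies is not given in the sources used here, so their counts are uncertain.

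Genes of RNA and protein production gave similar values. RNA processing loci were higher at 24 of 46 tested (median log2 ratio 1.11), such as Ttc9c-Hnrnpul2 with 51 anti-FLAG and 14 IgG tags. Ribosome biogenesis loci were higher at 15 of 28 (1.17), with Nsa2-Gfm2 at 40 and 12 and Nop16-Higd2a at 26 and 5. Cytosolic ribosomal protein loci were higher at 7 of 10 (1.21), with Mrpl49-Fau at 38 and 14 and Iqcg-Rpl35a at 32 and 10. Mitochondrial ribosomal protein loci were higher at 7 of 17 (1.11), with Ptcd2-Mrps27 at 29 and 8 and Mrps18b-Ppp1r10 at 28 and 7. Respiratory chain loci were higher at 10 of 27 (0.87), and chaperone and proteasome loci at 13 of 25 (1.28), with Vipar-Ahsa1, whose Ahsa1 encodes an activator of HSP90, at 44 and 12 and Erp44-Invs at 28 and 6. Loci of collagen, matrix and cytoskeleton genes were higher at 5 of 16 (0.93), with Leprel4-Fkbp10, both of collagen folding, at 27 and 5 and Tada3-Arpc4 at 32 and 10. The 42.5% of all tested pairs lies within the spread of these shares, and the lists hold too few loci to rank. After GC correction their medians lay between 0.20 for collagen, matrix and cytoskeleton and 0.90 for histones, and 2 mitosis loci, 1 repair locus and 1 RNA processing locus passed, all among the 4 pairs named above.

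The sequence of the shared promoters differed from that of single promoters in ways the definition did not use. In the stretch from 250 bp before to 50 bp after the TSS, CCGGAAG, on either strand, was found at 28.2% of the 1562 pair genes, 8.72% of single promoters, 16.2% of CpG-rich single promoters and 10.9% of all 21418 promoters. AAGATGGCG was at 5.25%, 1.40%, 2.76% and 1.84% in the same order, GCGCATGCG at 5.06%, 1.84%, 3.89% and 2.13%, TTTNNCGC at 11.5%, 5.31%, 8.93% and 6.08%, TGACGTCA at 4.29%, 2.13%, 3.92% and 2.31%, and ACTACAA at 5.31%, 3.62%, 3.69% and 3.73%. GGGCGG was at 68.2% of pair genes, against 39.98% of single promoters but 72.9% of CpG-rich ones. CACGTG was likewise at 11.1%, 7.39% and 11.2%. CCAAT was at 42.4%, 37.4% and 36.5%, so its gap remained among CpG-rich promoters. TATAAA was at 4.48% of pair genes, 15.1% of single promoters and 6.28% of CpG-rich ones, and TGANTCA at 3.20%, 7.67% and 3.53%, so most of either gap was absent among CpG-rich promoters. Both genes of a close pair read the same letters, so pair genes are not independent of each other.

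Loci with some of these letters also differed in ratio. The 221 loci with CCGGAAG in the central 300 bp had 16.9 anti-FLAG and 2.60 IgG tags per kb within 250 bp of the midpoint, a ratio of 6.54 (5.77 to 7.43), and the 552 without it 13.8 and 2.86 tags per kb, a ratio of 4.85 (4.50 to 5.25). Their median GC was 64.0% and 61.6%. The 517 loci with GGGCGG had a ratio of 6.59 (6.02 to 7.22) and the 256 without it 3.98 (3.62 to 4.39), with median GC of 64.2% and 57.8%. Here anti-FLAG density was lower with the letters, 13.8 against 16.4 tags per kb, and IgG density lower still, 2.11 against 4.14. The 38 loci with TATAAA had 3.47 (2.78 to 4.36) and the 735 without it 5.50 (5.13 to 5.90), with median GC of 51.2% and 62.8%. Anti-FLAG density was higher with the letters, 18.9 against 14.4 tags per kb, as was IgG density, 5.47 against 2.64. For the other 8 motifs the intervals of loci with and without the letters overlapped. GC moved with each of these differences, and its part in them was not tested.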

How the data were processed

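The deposited files list 1 mapped tag per line with start, end and strand, plus a constant score column that was ignored. Each tag spanned 36 bp, and repeated positions on one strand numbered 0 in either library. Per the labels' protocols, chromatin was fixed with formaldehyde and sonicated. The sources used here name no aligner, build or filter. All but 4 anti-FLAG and 2 IgG tags lay within NCBIM37 chromosomes and 0 in its gaps, so that build and its GENCODE M1 annotation were used.

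Tags of both libraries were moved 77 bp downstream, from an opposite-strand lag of 155 bp in the anti-FLAG library. The lag of the IgG library was 125 bp, which would have given 62 bp. IgG counts were multiplied by 0.9944 to match the library totals. Ratios against 0 IgG tags used a floor of 3 counts. The GC correction used 500-bp windows over 10 kb from every TSS in strata of 2 GC points. Windows without a tag in either library were left out. Strata above 72% GC held too few windows and took the value at 70 to 72%, a ratio of 5.36 from 109 windows and 55 IgG tags. Expected ratios are therefore uncertain at the highest GC. Exact 95% intervals hold for counting error alone, since tags come from amplified DNA without molecular identifiers.

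The members, lists and tests were chosen with earlier results of these data known. The lists hold pair genes sorted by name and known role, and those of histones and ribosome biogenesis were added after the files were read, as were the single locus per shared gene, the CpG limit and the counts at TSSs. Named pairs were the 12 of largest ratio past the test, the 5 lowest tested, those past the GC-corrected test, the 2 of smallest p per list and the well-known pairs. A pair near the distance limit is not reported here. The test was tried on simulated data. Python 3.11.15, NumPy 2.4.6, SciPy 1.17.1, pandas 2.3.3 and Matplotlib 3.10.9 were used.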

Additional observations from a re-analysis of the deposited data

How the results depend on the processing

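No paired analysis was possible because each antibody has 1 library. Of 51 alternatives, 24 left the value close to that reported, 27 moved it and 0 reversed its direction. The share of tested loci that were higher was larger at pairs than at single promoters in 9 of 9 settings. The share past 2-fold was larger in 10 of 10 and the median in 10 of 10. The share after GC correction was larger in 4 of 9, so that order changed with the setting.

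The number of loci tested changed with width and minimum, so shares are given beside the counts. The 281 loci that were higher (42.5% of those tested) became 177 (76.3%) with 500 bp and 141 (18.5%) with 2.5 kb on either side. They became 131 (66.2%) with a minimum of 40 tags and 120 (18.2%) at an adjusted p under 0.01. Tested single promoters went from 26.2% to 57.9%, 8.42%, 50.8% and 10.4% under the same settings. The 409 past 2-fold (61.9%) became 199 (85.8%), 151 (19.8%) and 127 (64.1%) under the first 3 of these settings and 170 (25.7%) past 3-fold. Tested single promoters went from 44.3% to 74.3%, 13.1%, 49.6% and 18.2%. The 4 past the GC-corrected test (0.605%) became 18 (2.72%) with IgG scaled by background bins and 13 (5.60%) with 500 bp on either side. With a minimum of 40 tags they became 21 (10.6%). Tested single promoters went from 0.96% to 2.44%, 6.89% and 9.47%, so the shares at pairs stayed near theirs. The median log2 ratio of 1.11 was 1.22 with background bins, 1.67 with 500 bp, 0.61 with 2.5 kb and 0.89 with 5 tags added. The ratio of 5.30 within 250 bp was 5.75 with background bins, 6.19 for TSSs within 300 bp, 6.56 within 100 bp and 3.43 within 500 bp, and that between the TSSs was 9.33 for TSSs within 300 bp. The ratio of 2.70 at single promoters was 2.92 with background bins, 2.64 with tags not moved, 3.53 within 100 bp and 2.03 within 500 bp. Alternatives chosen after the data were seen gave 2.51 centred 75 bp upstream, 4.93 for CpG-rich single promoters and 4.08 with both. Fewer or more tags per window enter with width and minimum, and the cause of the other shifts was not tested. With 22 and 10 tags in a median pair window, single loci limit what can be called.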

Other observations

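Some loci outside the named sets stood out and were chosen after their values were seen. Hnrnpa2b1-Cbx3, a housekeeping pair of an RNA-binding protein and a heterochromatin protein whose promoter region is known for resisting silencing of transgenes, held 11 anti-FLAG and 0 IgG tags. Against a floor of 3 counts in that window this was 3.69-fold higher, a value set by the floor and not a lower limit. The tags were too few for the test. Hjurp-Trpm8 held the most tags of any pair, 79 anti-FLAG and 50 IgG, with a log2 ratio of 0.66; Hjurp encodes the chaperone of the centromeric histone CENP-A. Its adjusted p was 0.0394 in the exact test and 0.63 after GC correction. Both libraries had no tag at 7 loci, among them Gm11048-Defa3 and 2 histone pairs.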
